A study of Agaricus blazei with 33 samples.

Results

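The genes described here carry the protein domains by which a fungal cell senses a mating pheromone and passes the signal on through GTP-binding proteins. They were chosen by the Pfam domains (families of related protein domains) named in the annotation of the deposited table, and they number 88 of the 10337 genes listed. They fall into 9 families: 5 STE3-type pheromone receptors, 14 alpha subunits of heterotrimeric G proteins (G-alpha), 2 regulators of G-protein signalling (RGS), 27 Ras family GTPases, 5 ADP-ribosylation factor (ARF) GTPases, 14 RhoGEF genes, 12 RhoGAP genes, 6 RasGEF genes and 4 RasGAP genes. One gene, A04826, holds both a RhoGAP and a RasGEF domain and is counted in both families. The tool StringTie predicted 2 of the genes from the reads, and 0 of the 88 overlap another gene of the table.

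RNA was sequenced from Agaricus blazei strain JA, a cultivated mushroom, in 33 libraries, 3 for each of 11 conditions. The conditions were mycelia at 20 days after casing (the covering of the colonised compost with a soil layer that starts fruiting), primordia at the pinhead stage, and the whole fruit body, the pileus (cap) and the stipe (stem) at the button, harvest and maturation stages. All libraries share 1 strain and no treatment, and the labels do not say whether the libraries of a condition came from separate cultures, so the p-values measure only the spread between these libraries. Strain JA is a heterokaryon, whose cells hold nuclei of different mating type, whereas the assembly to which the reads were aligned came from a homokaryon, JA-15036, so receptor alleles carried only by the other nucleus have no gene of their own here.

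Basidiomycete fungi recognise a partner through small prenylated peptide pheromones, which bind receptors of the STE3 type in the cell membrane. The receptor activates a heterotrimeric G protein, whose alpha subunit is switched off faster by an RGS protein, and the signal runs on to kinase cascades and to cyclic AMP. Small GTPases, among them those of the Ras and ARF groups, are molecular switches for polar growth, the actin cytoskeleton and vesicle traffic, turned on by exchange factors (GEFs) and off by activating proteins (GAPs).

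The reads on genes, recovered from the FPKM values, ranged from 15573864 to 21454052 per library. FPKM is a fragment count scaled by gene length and by library size, and the sizes the authors used came to 0.742 to 1.22 of the reads recovered. Of the 33 libraries, 6 stood apart, in that their best correlation across genes with their own group was at most 0.9493. In the others it was 0.9684 or more. Some of the others still correlated slightly better with another group, namely button fruit body 3, button pileus 1, harvest fruit body 1 and maturation pilei 1 and 2. The excess was largest in harvest fruit body 1, at 0.980 against 0.974. The 6 were as follows. Button fruit body 2 correlated best with a button stipe library (r = 0.982, against 0.910 and 0.935 with its own group), and button stipe 1 best with a whole button fruit body (r = 0.975, against 0.922 and 0.935). Maturation pileus 3 correlated at 0.883 and 0.896 with the other mature pilei and at 0.946 with a whole mature fruit body, while of the whole mature fruit bodies replicate 1 correlated best with a mature stipe (r = 0.981), replicate 3 with a mature pileus (r = 0.991) and replicate 2 at 0.917 and 0.949 with its own group. Values without maturation pileus 3, button stipe 1 or button fruit body 2 are given beside results they move. Among the main fits, the whole mature fruit bodies entered only the F test over all conditions.

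Both marker lists, for spore-forming tissue and for feeding mycelium, were summed per library. The 6 genes listed for meiosis, the division that precedes spores in the gills, were taken by domain. All were detected in every library. They summed to 777, 663 and 282 FPKM in mature pilei (lowest in replicate 3), against 207 to 226 FPKM in mature stipes. The difference rests on 4 of them, since A03768 averaged 78.3 FPKM in mature pilei and 74.7 FPKM in mature stipes, and A04333 69.96 and 78.3 FPKM. In the annotation A03768 and A04333 hold only a HORMA domain. They averaged 75.5 and 57.2 FPKM in mycelia, and whether they act in meiosis was not tested. The 11 genes listed for secreted enzymes of substrate mycelium, also taken by domain, summed to 409 to 466 FPKM in primordia. They summed to 885 to 1209 FPKM in mycelia, but reached 1213 to 1507 FPKM in mature stipes and 790 to 1120 FPKM in harvest stipes. Most of the sum comes from A00170, with a mean of 775 FPKM in mature stipes and 834 FPKM in mycelia, and from A00171, with 345 and 98.8 FPKM, while A06037 had 28.9 and 60.1 FPKM. In primordia the mean of A00170 was 246 FPKM. A08438, A00960, A07539 and a StringTie gene of the list had higher means in primordia than in mycelia, and the others lower. In pieces of tissue such as these, fewer cells of a type and less RNA per cell cannot be told apart.

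Over all 11 conditions the receptors varied most, while most of the small GTPases varied little. The level was taken as log2(FPKM + 0.1), on which all fold changes below are given, and a gene was counted as varying when limma's F test gave an adjusted p under 0.05 and its condition means spanned at least 2 on the log2 scale. Of the 87 members tested, 22 varied by this rule, which is 25.3% of them, against 44.8% of the 9449 genes tested. The median span was 1.18 for the members and 1.84 for all genes. All 5 STE3 receptors varied (median span 4.07), as did 5 of 13 G-alpha genes, 5 of 14 RhoGEF genes, 4 of 12 RhoGAP genes, 2 of 27 Ras family genes, 1 of 5 ARF genes and 1 of 6 RasGEF genes. Neither of the RGS genes nor any of the 4 RasGAP genes reached the span. The count came to between 19 and 24 when single libraries were left out. No count without all 6 libraries that stand apart is given here. The member not tested, the G-alpha gene A01671, had a mean of 0.278 FPKM, below the minimum of 0.5.

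**Figure D1:**
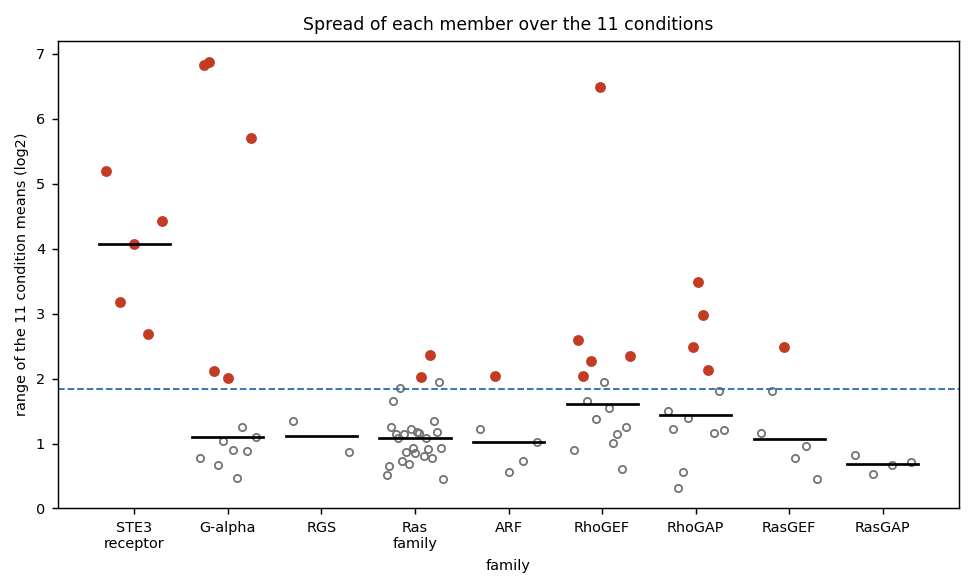
Span of the 11 condition means on the log2(FPKM + 0.1) scale (vertical axis) for each member, by family (horizontal axis). Filled points varied by the rule in the text, black bars are family medians, and the dashed line is the median over all genes tested, 1.84; only the STE3 receptors have their median, 4.07, above it.

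Of the 87 members tested, 24.1% had their highest condition mean in mycelia, 19.5% in mature stipes, 13.8% in whole harvest fruit bodies and 12.6% in mature pilei, also where the F test did not pass. Over all genes tested the shares were 23.2%, 16.8%, 7.21% and 11.2%.

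A07375, A07376 and A08636 were higher at the button stage than at maturation in both tissues, as was a scarce receptor gene predicted by StringTie, whereas A02085 was high in mycelia and in stipes. A07375 and A07376 lie side by side on contig 4 of the JA-15036 assembly, at 1507704 to 1509134 on the plus strand and at 1510216 to 1511720 on the minus strand, with a gap of 1081 bp. The StringTie receptor gene lies on the same contig at 1630208 to 1631885. A08636 lies on contig 6 at 1808491 to 1810875 and A02085 on contig 15 at 1202312 to 1203750. No label or annotation says which of them belong to a mating-type locus.

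A07375, a STE3-type receptor, had 173, 147 and 137 FPKM in primordia, against 36.3, 46.7 and 28.4 FPKM in mycelia. Every primordia library lay above every mycelia library, and the log2 fold change was 2.06 (standard error 0.19, limma adjusted p = 7.3e-05). Its neighbour A07376 had 96.0, 82.2 and 61.7 FPKM in primordia, against 16.2, 19.2 and 8.96 FPKM in mycelia. This gene rose by 2.47 on the log2 scale (standard error 0.29, limma adjusted p = 0.00023), again with no overlap of the libraries. Across the 33 libraries the log2 levels of the neighbours had a Pearson r of 0.948, a description of points that share library and stage. Their genes face each other with their 3′ ends, and no source used here states whether reads were counted by strand.

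A08636 was the most abundant receptor per length, with a mean of 168.5 FPKM over all libraries. It had 169.5, 170.1 and 116 FPKM in primordia and 107, 129.9 and 93.9 FPKM in mycelia, which overlap, and its log2 difference of 0.45 did not pass the test (limma adjusted p = 0.069). The StringTie receptor gene was the least abundant, with 1.68, 1.85 and 1.96 FPKM in primordia and 2.9, 4.64 and 1.46 FPKM in mycelia. Its log2 difference was -0.54 (limma adjusted p = 0.25) and its libraries overlapped.

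A02085 went the other way. It had 3.01, 2.32 and 2.13 FPKM in primordia, against 53.8, 29.6 and 26.5 FPKM in mycelia, and fell by 3.77 on the log2 scale (standard error 0.28, limma adjusted p = 2.6e-05). Its part of the summed FPKM of the 5 receptors averaged 0.641% in primordia and 18.1% in mycelia. A08636 made up 38.9% of the sum in primordia and 55.0% in mycelia.

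From the button to the mature stage, 4 of the 5 receptor genes fell in pileus and in stipe, where 12.5% and 13.8% of all genes fell. A07376 had 10.2, 10.7 and 2.65 FPKM in mature pilei, against 85.5, 70.0 and 37.9 FPKM in button pilei. In stipes it had 7.17, 6.75 and 7.03 FPKM at maturation, against 97.7, 59.99 and 40.4 FPKM at the button stage. Neither tissue showed any overlap between the stages, and the log2 fold changes were -3.18 in pileus (limma adjusted p = 0.00051) and -3.13 in stipe (limma adjusted p = 0.00064), each with a standard error of 0.58. Without maturation pileus 3 and button stipe 1 they were -2.54 and -2.80.

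A07375 fell by 1.85 in pileus (limma adjusted p = 0.011) and by 2.42 in stipe (limma adjusted p = 0.0022). A08636 fell by 1.61 in pileus (limma adjusted p = 0.014) and by 1.94 in stipe (limma adjusted p = 0.0051). Without maturation pileus 3 and button stipe 1, the change of A08636 in pileus was -0.93, below the size called, while A07375 stayed called at -1.22 in pileus and -1.97 in stipe. Maturation pileus 3 had the lowest level of A07375, A07376 and A08636 among all 33 libraries, at 19.4, 2.65 and 24.6 FPKM.

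The StringTie receptor gene was close to 0 in mature pilei, with 0.0478, 0 and 0.05 FPKM there, against 2.01, 2.20 and 2.63 FPKM in button pilei. Behind these values stand 2 reads in the mature pilei and 220 reads in the button pilei. The ratio of the levels, taken from these reads and the library sizes, was 0.0139 with an exact 95% interval of 0.00167 to 0.0508 that covers counting error only. In stipe its fitted change was -2.08 (limma adjusted p = 0.015), a call lost without button stipe 1 and maturation pileus 3, where it was -1.36.

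Harvest stipe 3 had 317 FPKM of A07375, 121 FPKM of A07376 and 374 FPKM of A08636, while the other harvest stipes had 108 and 91.5 FPKM, 28.1 and 30.9 FPKM, and 134 and 126 FPKM of the same genes. A07375 also ranged from 118 to 434 FPKM among the 3 whole harvest fruit bodies. The summed FPKM of the 5 receptors averaged 716 ± 262 in whole harvest fruit bodies (SD, n = 3), 491 ± 328 in harvest stipes and 120 ± 16.5 in mature stipes.

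**Figure D2:**
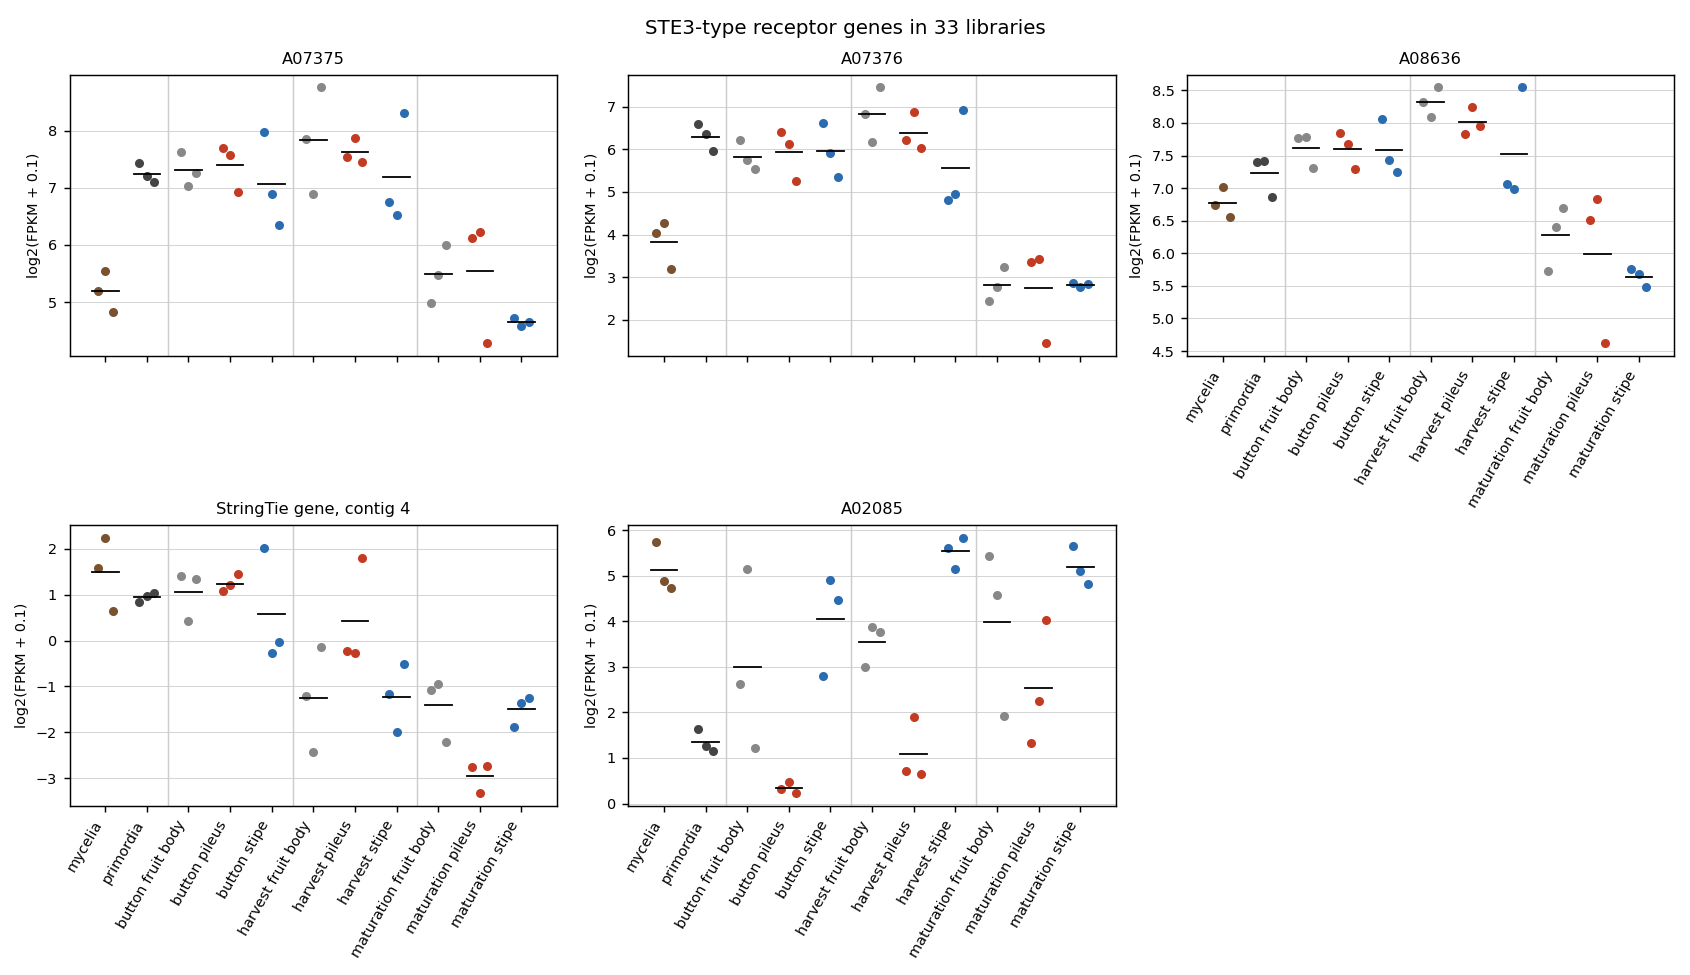
Level of the 5 STE3-type receptor genes, as log2(FPKM + 0.1) on the vertical axis, in the 33 libraries grouped by the 11 conditions on the horizontal axis (points are libraries, bars are means of 3; brown mycelia, dark grey primordia, light grey whole fruit bodies, red pileus, blue stipe). A07375, A07376 and A08636 are low at maturation, and A02085 is high in mycelia and lower in pileus than in stipe at every stage.

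A02085 was the receptor with a tissue difference at every stage. In button pilei it had 1.15, 1.29 and 1.07 FPKM, against 6.86, 30.0 and 22 FPKM in button stipes. In harvest pilei it had 1.54, 3.64 and 1.48 FPKM, against 48.6, 35.6 and 57.2 FPKM in harvest stipes. In mature pilei it had 2.40, 4.68 and 16.1 FPKM, against 50.4, 34.5 and 28.3 FPKM in mature stipes. The pileus libraries lay below the stipe libraries at all 3 stages, with log2 fold changes of -3.72, -4.44 and -2.67 (limma adjusted p = 0.00073, 9.3e-05 and 0.0033).

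The low stipe value at the button stage is button stipe 1 and the high pileus value at maturation is maturation pileus 3, both of which stand apart. Without them the differences of A02085 were -4.35 at the button stage and -3.41 at maturation. The rise of A02085 from button to mature pilei, 2.19 (limma adjusted p = 0.0088), was 1.45 without them and stayed called. In whole button fruit bodies the gene had 6.07, 35.3 and 2.21 FPKM, and the high value is that of button fruit body 2.

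Among the 14 G-alpha genes, which encode the subunit that binds GTP and passes on the receptor's signal, several were far lower in primordia than in mycelia. Of the 13 tested between these stages, 0 rose and 4 fell, against 15.1% of all genes higher and 22.5% lower. Not all of the 4 kept their call with library totals. A09359 (contig 8, 142336 to 144795) had 11.8, 9.25 and 7.98 FPKM in primordia, against 330.3, 360.0 and 327 FPKM in mycelia. It was the most abundant G-alpha gene of the mycelium and fell by 5.13 on the log2 scale (standard error 0.15, limma adjusted p = 7.1e-07). In the 27 libraries of later stages it stayed between 5.0 and 18.2 FPKM.

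A01882 (contig 14, 1085451 to 1086808) had 0.234, 0.344 and 0.464 FPKM in primordia, against 16.5, 16.7 and 12.7 FPKM in mycelia. It too fell by 5.13 (standard error 0.25, limma adjusted p = 4.4e-06), on a scale that understates the change of so low a gene. The ratio from its reads, 24 in primordia and 779 in mycelia, was 0.0221 (exact 95% interval 0.0141 to 0.0332, counting error only). No other library held more than 1.15 FPKM of it, and 3 libraries of harvest tissue held 0.

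A01884, which lies 9242 bp further along contig 14 on the same strand, followed another course. It had 7.72, 6.81 and 7.01 FPKM in primordia, against 32.8, 33.9 and 42.6 FPKM in mycelia, a fall of 2.32 (limma adjusted p = 1.1e-05). At maturation it had 107, 103 and 142 FPKM in stipes, against 5.42, 6.25 and 11.3 FPKM in button stipes, and rose by 3.98 (standard error 0.56, limma adjusted p = 9.5e-05). With a span of 6.87 on the log2 scale it varied more over the 11 conditions than any other member tested.

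In pileus A01884 was lower than in stipe at each stage, although the button difference is weak. Mature pilei had 11.2, 6.33 and 53.7 FPKM, below each mature stipe, and the highest of the 3 is maturation pileus 3. The log2 fold change was -2.88 (limma adjusted p = 0.0014) with that library and -3.77 without it and button stipe 1. In harvest pilei it had 0.790, 0.690 and 1.28 FPKM, against 9.52, 10.7 and 19.8 FPKM in harvest stipes, a fold change of -3.69 (limma adjusted p = 0.00021). The button difference of -1.60 (limma adjusted p = 0.044) lost its call under 15 of the alternative settings. From button to mature pilei it rose by 2.69 (limma adjusted p = 0.0015), which was 1.80 without both doubted libraries.

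A02163, a G-alpha gene on contig 15, was higher in pileus than in stipe at all stages. Button pilei had 242, 299 and 308 FPKM, against 103, 72.6 and 71.7 FPKM in button stipes. Harvest pilei had 288, 268 and 314 FPKM, against 96.0, 117 and 103 FPKM in harvest stipes. Mature pilei had 286, 295 and 145 FPKM, against 64.1, 57.8 and 80.5 FPKM in mature stipes. No stage showed overlap, and the log2 fold changes were 1.79, 1.46 and 1.78 (standard error 0.24 each, limma adjusted p = 0.00018, 0.00032 and 0.0001). Without maturation pileus 3 and button stipe 1 the maturation value was 2.12.

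The change of that difference between stages was -0.01 (standard error 0.34), so a change of the difference was not detected for A02163. In this gene too, maturation pileus 3 and button fruit body 2, at 145 and 74.5 FPKM, stood nearer to stipe than the other libraries of their groups.

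**Figure D3:**
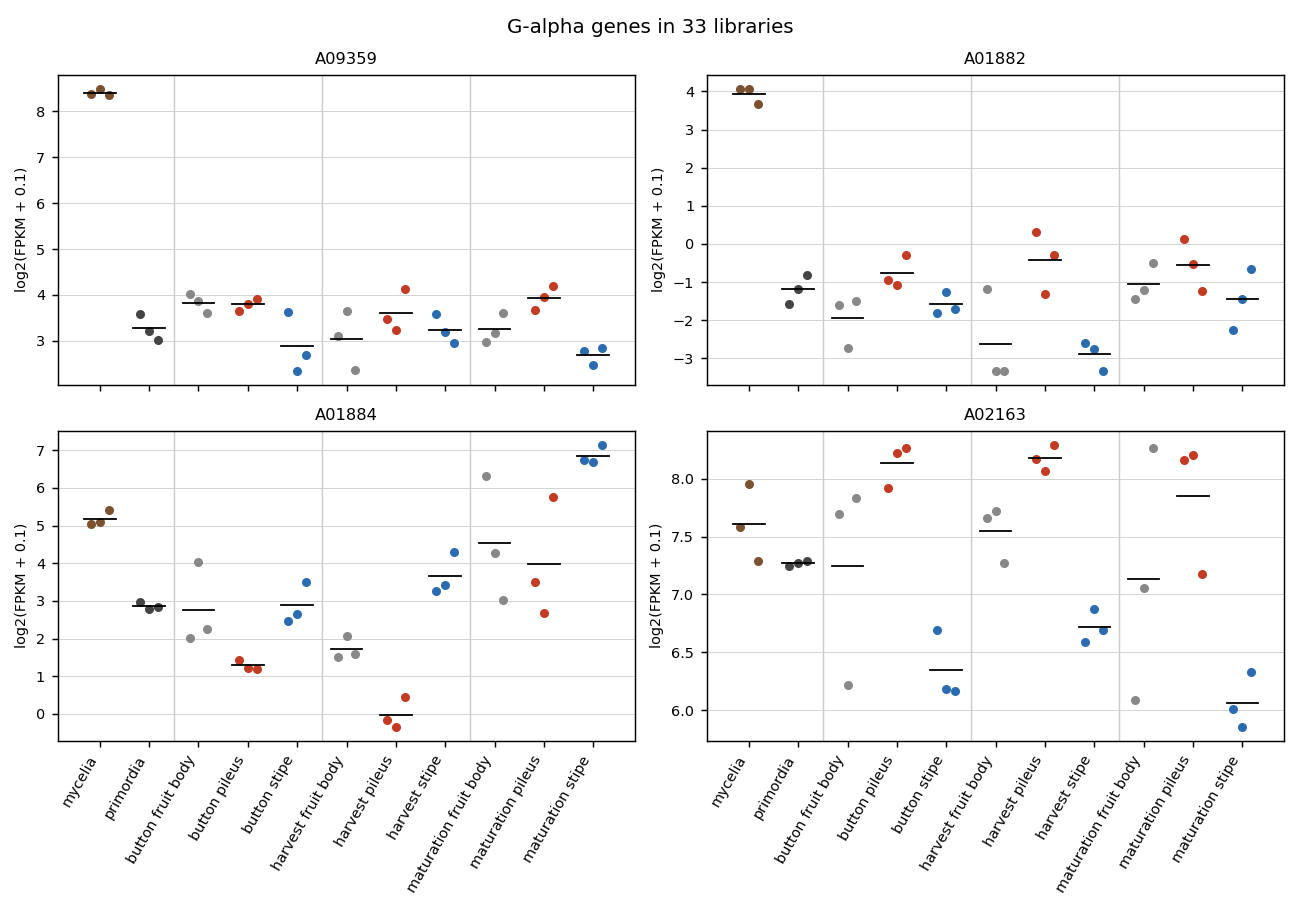
Level of 4 G-alpha genes, as log2(FPKM + 0.1) on the vertical axis, in the 33 libraries by condition (points are libraries, bars are means of 3; brown mycelia, dark grey primordia, light grey whole fruit bodies, red pileus, blue stipe). A09359 and A01882 are high in mycelia, A01884 peaks in mature stipes, and A02163 is higher in pileus than in stipe at each stage.

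The most abundant G-alpha gene over all libraries, A09170, was steadier, with a span of 0.89 on the log2 scale. It had 252, 262 and 270.0 FPKM in primordia and 184, 202 and 171 FPKM in mycelia, a difference of 0.50 (limma adjusted p = 0.0053) that is below the size called. A05087 was among the lowest, with 1.30, 1.24 and 0.726 FPKM in mature pilei, against 3.41, 2.82 and 3.72 FPKM in button pilei. It fell by 1.55 between these stages (limma adjusted p = 0.00089). Its difference between mature pileus and stipe, -1.23 (limma adjusted p = 0.0054), was -0.99 without maturation pileus 3 and no longer called. On the authors' scaling, the summed FPKM of all 14 genes averaged 837 ± 46.2 in primordia and 1329 ± 117 in mycelia (SD, n = 3 each).

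RGS proteins speed the shut-off of G-alpha by the RGS domain. On the authors' scaling, the 2 genes with this domain were called in 0 of the comparisons. Whether their products act on G-alpha was not tested. A05716, which also has a DEP domain, averaged 217 FPKM over all libraries, and A04265, with PX and PXA domains, averaged 46.1 FPKM. A04265 had 40.9, 43.7 and 39.4 FPKM in primordia, all above the 26.1, 26.1 and 23 FPKM of mycelia. That difference, 0.72 on the log2 scale (standard error 0.11, limma adjusted p = 0.00073), passed the test but not the size of 1. It was measured on the authors' scaling, and library totals raise primordia relative to mycelia.

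Over all families, 23 of the 87 members tested were called between primordia and mycelia, 7 higher and 16 lower in primordia, where called means that limma's adjusted p was under 0.05 and that the level moved by 1 or more on the log2 scale. That is 26.4% of them, against 37.5% of all genes tested (15.1% higher and 22.5% lower). The median over the members was -0.08, close to the -0.04 over all genes. The split depends on scaling. With library totals in place of the authors' sizes, the median over all genes moved to 0.31 and 11 members were called higher and 10 lower, and with quantile normalization 10 and 12. All fold changes here are relative to the authors' scaling.

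**Figure D4:**
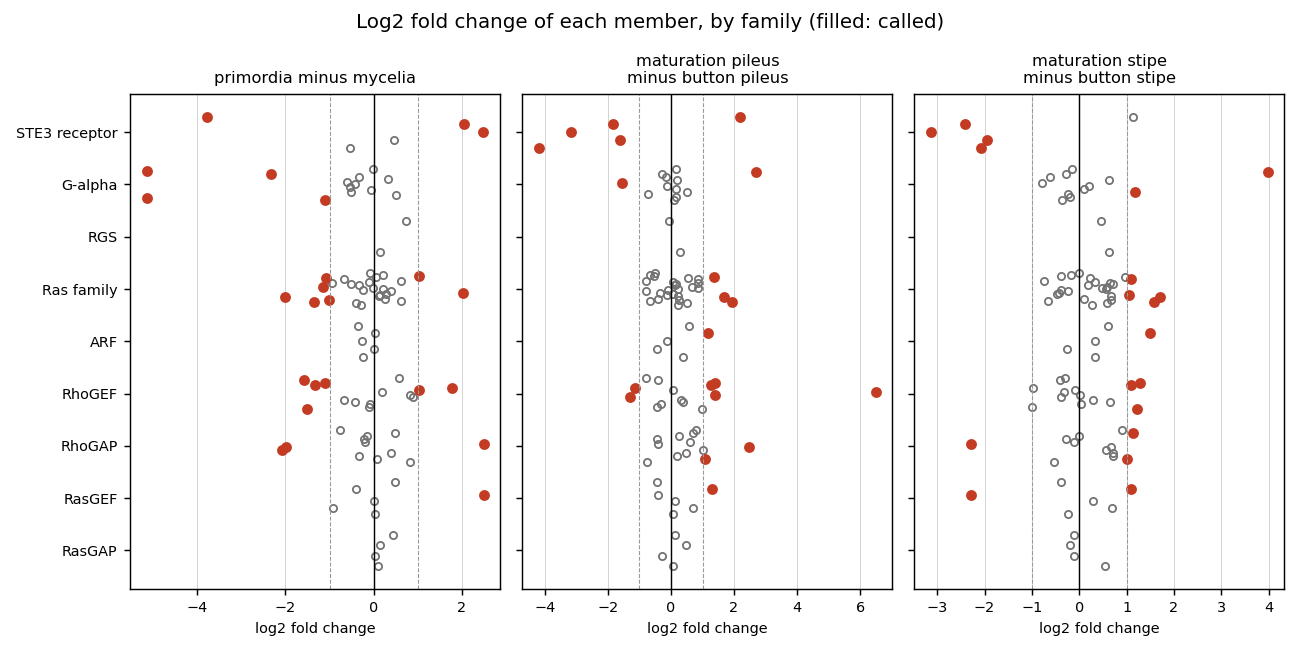
Log2 fold change on the log2(FPKM + 0.1) scale (horizontal axis) of each member by family (vertical axis) for primordia minus mycelia and for maturation minus button in pileus and stipe. Filled points are called, dashed lines mark a size of 1; in primordia 4 G-alpha genes and 1 receptor lie beyond -1, and at maturation 4 receptors lie beyond -1 in either tissue. A04826 appears in 2 families.

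The Ras family, which holds several types of switch under one domain, was the largest. Its summed FPKM averaged 7248 ± 330 in primordia and 9131 ± 589 in mycelia (SD, n = 3 each). These sums depend on the scaling. The authors' sizes were 0.890 to 0.924 of the reads recovered in mycelia and 1.12 to 1.18 in primordia. Of 27 members, 2 rose and 5 fell between primordia and mycelia, beside 15.1% of all genes higher and 22.5% lower. Some of these falls lost their call with library totals and with quantile normalization. The most abundant, A09729, had 834, 896 and 1054 FPKM in primordia and 1016, 1340 and 1361 FPKM in mycelia, which overlap, and was not called in any comparison. A00728, whose annotation names the Ras protein of Lentinula edodes (shiitake), spanned only 0.51 on the log2 scale over the 11 conditions, and its F test did not pass (limma adjusted p = 0.1). A00816, named after a Ras-like protein of Drosophila melanogaster, spanned 0.65.

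A06343 varied most within the family. It had 19.3, 15.5 and 12.3 FPKM in primordia, against 56.3, 51.9 and 82.1 FPKM in mycelia, and fell by 2.0 (limma adjusted p = 0.00017). It rose again to 82.8, 76.1 and 78.0 FPKM in mature pilei, against 21.7, 26.3 and 26.1 FPKM in button pilei. Mature stipes had 42.2, 50.1 and 57.3 FPKM, against 11.3, 19.2 and 16.3 FPKM in button stipes. The rises were 1.68 in pileus (limma adjusted p = 3.7e-05) and 1.69 in stipe (limma adjusted p = 4.4e-05), and the stages did not overlap in either tissue.

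A09410 was far more abundant and was called in the same 3 comparisons, and also in harvest pilei against stipes (-1.35, a call lost with library totals). It had 237, 287 and 325 FPKM in primordia, against 602, 802 and 775 FPKM in mycelia, a fall of 1.36 (limma adjusted p = 0.00033). In mature stipes it had 759.7, 776 and 1001 FPKM, against 193, 343 and 331 FPKM in button stipes, and rose by 1.58 (limma adjusted p = 8.7e-05). In pileus it rose by 1.95 (limma adjusted p = 1.2e-05).

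ARF GTPases recruit coats to budding vesicles in the secretory pathway. A05901 (contig 2, 1233247 to 1233944) was the most abundant member of all families, with a mean of 2691 FPKM. It had 6109, 5642 and 6542 FPKM in mature stipes, against 1703, 2680 and 2196 FPKM in button stipes, and rose by 1.5 (standard error 0.43, limma adjusted p = 0.012). No mature stipe overlapped a button stipe. In mature pilei it had 2098, 1986 and 8900 FPKM, the last in maturation pileus 3, against 1423, 1519 and 1525 FPKM in button pilei. The rise of 1.16 in pileus (limma adjusted p = 0.041) was 0.46 without the doubted libraries and then not called, nor was it called with quantile normalization (0.88) or library totals (0.78). The other 4 ARF genes were called in 0 of the comparisons.

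RhoGEF proteins load small GTPases with GTP and RhoGAP proteins turn them off. A05030, a RhoGEF gene on contig 23 (394355 to 398288), was scarce before harvest and abundant in mature caps. Button pilei had 0.383, 0.536 and 0.381 FPKM, against 0.820, 1.29 and 0.826 FPKM in button stipes. Harvest pilei had 20.8, 3.84 and 11.4 FPKM, against 0.977, 1.54 and 1.02 FPKM in harvest stipes. Mature pilei had 125, 92.2 and 9.10 FPKM, against 0.455, 0.846 and 1.03 FPKM in mature stipes. The pileus libraries lay above the stipe libraries at harvest and at maturation and below them at the button stage.

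The log2 fold changes of A05030 between pileus and stipe were -0.999 at the button stage, where the test did not pass (limma adjusted p = 0.33), 2.97 at harvest (limma adjusted p = 0.0055) and 5.82 at maturation (standard error 0.77, limma adjusted p = 9.3e-05). The maturation difference corresponds to 56.4-fold. Without maturation pileus 3 and button stipe 1 it was 7.0. The change of the difference from button to maturation was 6.82 (standard error 1.09, limma adjusted p = 0.0017), and 8.10 without those libraries. The whole mature fruit bodies had 0.863, 29.2 and 119 FPKM, and the highest is the one that resembles a pileus. The summed genes of the meiosis list, given above, were also lowest in the third of the mature pilei. In the harvest pilei they summed to 410, 316 and 394 FPKM, with the lowest sum in replicate 2, where A05030 was lowest too. Their part in the result was not tested.

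The RhoGAP gene A05208 was also highest in mature pilei. It had 39.5, 28.8 and 4.10 FPKM there, against 1.81, 3.0 and 2.19 FPKM in mature stipes, and the log2 fold change was 2.82 (standard error 0.59, limma adjusted p = 0.0021). Without the doubted libraries it was 3.83. Against the 3.03, 3.60 and 2.26 FPKM of button pilei, mature pilei were higher by 2.49 (limma adjusted p = 0.0036), and by 3.49 without the doubted libraries. Primordia had 1.90, 1.61 and 1.81 FPKM, against 6.50, 6.23 and 9.78 FPKM in mycelia, and A05208 fell there by 2.0 (limma adjusted p = 0.00016).

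A09775 was the most abundant RhoGEF gene. Harvest pilei had 60.9, 84.2 and 51.5 FPKM, against 182, 257 and 204 FPKM in harvest stipes, a log2 difference of -1.72 (standard error 0.34, limma adjusted p = 0.0011). Between primordia, with 41.2, 42.0 and 42.1 FPKM, and mycelia, with 98.3, 102 and 166 FPKM, it fell by 1.5 (limma adjusted p = 0.0004). Of the 14 RhoGEF genes, 2 rose and 4 fell between these stages, and of the 12 RhoGAP genes 1 rose and 2 fell, beside the 15.1% higher and 22.5% lower of all genes. Some of the RhoGEF falls lost their call with library totals.

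A04826, with a RhoGAP and a RasGEF domain on contig 22 (597000 to 604084), rose at fruiting by about as much as the receptor A07376. It had 165, 208 and 164 FPKM in primordia, against 32.4, 36.0 and 27.1 FPKM in mycelia, and rose by 2.49 (standard error 0.15, limma adjusted p = 1.1e-05). Mature stipes had 32.1, 36.1 and 35.7 FPKM, against 245, 130.2 and 153 FPKM in button stipes, and the log2 fold change was -2.29 (limma adjusted p = 8.1e-06). Button pilei, with 62.8, 47.4 and 53.4 FPKM, lay below every button stipe, a difference of -1.65 (limma adjusted p = 0.00033). The highest stipe value, 245 FPKM, is that of button stipe 1, which stands apart. Over the alternative settings the difference ranged from -1.84 to -1.38 and stayed called. At maturation the pileus difference was 0.25 and did not pass the test (limma adjusted p = 0.41). The change between these stages was 1.89 (standard error 0.34, limma adjusted p = 0.003), and 1.63 to 2.09 over the alternative settings.

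**Figure D5:**
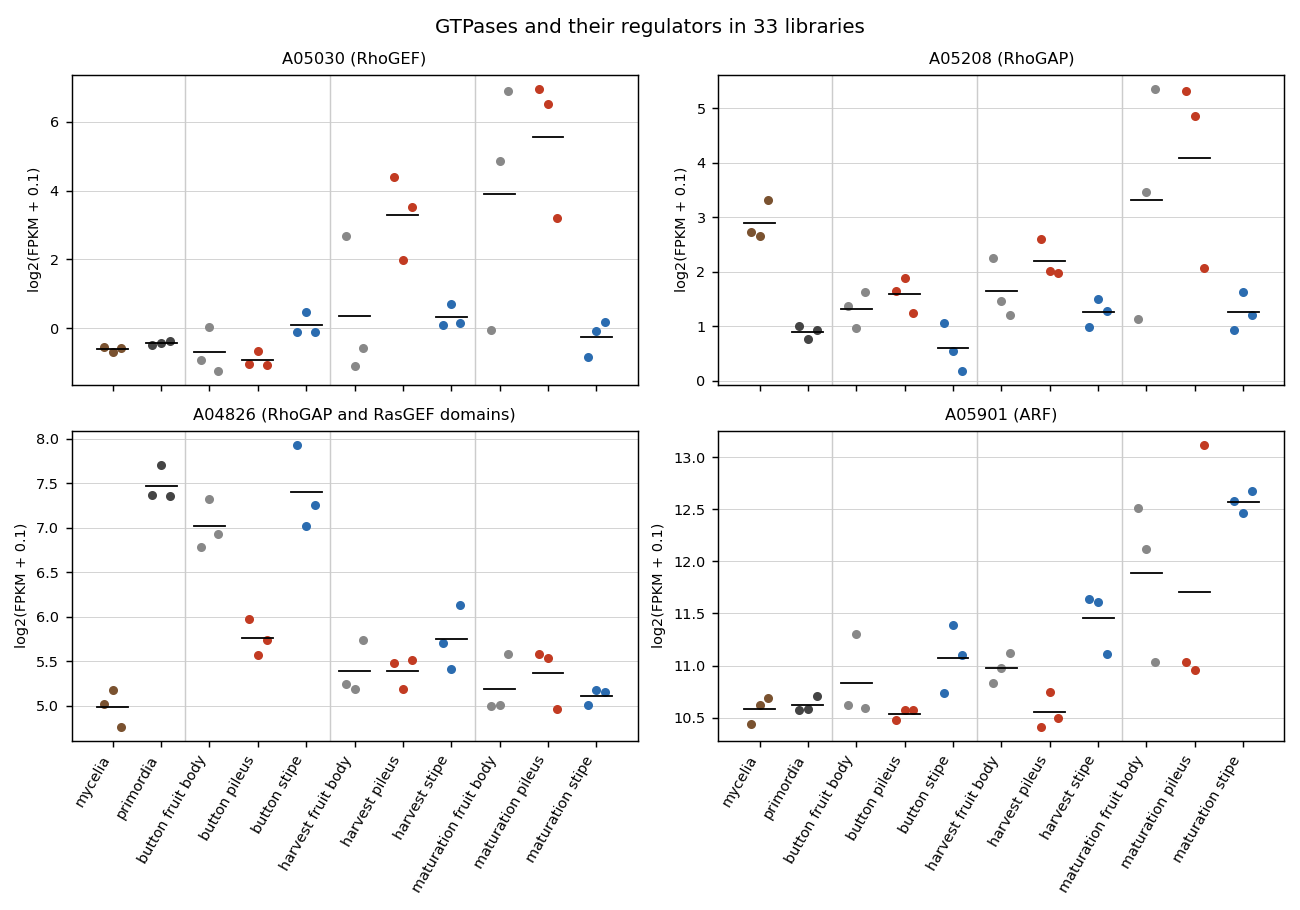
Level of a RhoGEF, a RhoGAP, a gene with both a RhoGAP and a RasGEF domain and an ARF gene, as log2(FPKM + 0.1) on the vertical axis, in the 33 libraries by condition (points are libraries, bars are means of 3; brown mycelia, dark grey primordia, light grey whole fruit bodies, red pileus, blue stipe). A05030 and A05208 are highest in mature pilei, of which replicate 3 is the low point, A04826 is highest in primordia and button stipes, and A05901 is high in mature stipes and in maturation pileus 3.

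The most abundant RasGEF gene was A04197, which also has an SH3 domain. Mature stipes had 184, 189 and 214 FPKM, against 82.7, 100.4 and 91.2 FPKM in button stipes, and the log2 difference was 1.10 (limma adjusted p = 0.001). That call was lost with quantile normalization (0.86) and with library totals (0.80). Its neighbour on the other strand 306 bp away is the Ras family gene A04198. The RasGAP genes were the steadiest family, with spans of 0.53 to 0.82. A00676 was matched in the annotation to gap1 of Schizosaccharomyces pombe (fission yeast) and to IQGAP2/3, a Ras GTPase-activating-like protein. Its gene model also holds an aspartyl protease domain. It had 84.2, 79.5 and 84.5 FPKM in primordia and 65.3, 67.5 and 50.7 FPKM in mycelia. That difference of 0.45 (limma adjusted p = 0.019) was below the size called. The RhoGAP gene A02194, which has an F-BAR domain, had the smallest span of all members tested, 0.32, and averaged 99.65 FPKM.

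The remaining comparisons are given by their counts. Between whole button fruit bodies and primordia limma called 0 of 86 members, against 0.0324% of all genes (0.0216% higher and 0.0108% lower in button fruit bodies). At an unadjusted p under 0.05 there were 6 members, and voom (limma on the recovered reads) called 0 with 5 unadjusted. Without button fruit body 2 the count was still 0, with 18 unadjusted and 5 below an adjusted p of 0.05, while 4.1% of all genes were then called.

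In button pilei against button stipes 4 of 86 members were called, 1 higher and 3 lower, against 17.9% of all genes (7.91% higher and 9.96% lower). The 4 are A02163, A02085, A04826 and A01884. Without button stipe 1 the count was 7, with 26.0% of all genes called, and library totals and quantile normalization each gave 2 higher and 3 lower. In harvest pilei against harvest stipes 19 were called, 6 higher and 13 lower, against 31.6% of all genes (16.7% higher and 14.9% lower). Without harvest pileus 3 the count was 12, with 27.9% of all genes called, and with library totals, which moved the median of all genes to 0.37, it was 6 higher and 4 lower, while quantile normalization gave 4 higher and 10 lower.

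In mature pilei against mature stipes 11 of 86 members were called, 6 higher and 5 lower, against 25.1% of all genes (13.6% higher and 11.5% lower). Without maturation pileus 3 the count was 18, with 37.3% of all genes called. It was 7 without replicate 1 and likewise without replicate 2 of the mature pilei, with 17.6% and 17.9% of all genes called, so the count moved with that of all genes. The change of the difference from button to maturation was called for 3 members, 2 of them upward, against 9.38% of all genes (5.9% upward and 3.48% downward), and for 8 without maturation pileus 3, with 23.6% of all genes called. Quantile normalization gave 2 upward and 2 downward. Of the 11 members called at maturation, 10 were among the 19 called without maturation pileus 3 and button stipe 1.

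Between mature and button pilei 20 of 86 members were called, 13 higher and 7 lower, against 26.2% of all genes (13.7% higher and 12.5% lower). In stipes 18 were called, 13 higher and 5 lower, against 26.2% of all genes (12.4% higher and 13.8% lower). With library totals the medians of all genes moved to -0.39 in pileus and -0.31 in stipe, and the splits became 7 higher and 14 lower in pileus and 4 higher and 9 lower in stipe. Quantile normalization gave 12 higher and 11 lower in pileus and 8 higher and 8 lower in stipe. Of the 20 members called in pileus 14 kept their call with library totals, and of the 18 in stipe 9 did.

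A further 43 genes, called partners here, were taken by domains of related signalling proteins. Whether each works with the members was not tested. Between primordia and mycelia 42 were tested, of which 4 rose and 6 fell, which is 23.8% called, against 37.5% of all genes (15.1% higher and 22.5% lower). With library totals 7 rose and 4 fell, so the split depends on the scaling. A05248, an isoprenylcysteine methyltransferase of the kind that finishes prenylated proteins and pheromones, had 941, 823 and 706 FPKM in primordia, against 3.02, 5.41 and 6.11 FPKM in mycelia. It rose by 7.43 on the log2 scale (standard error 0.26, limma adjusted p = 1.2e-06), more than any member did. Another gene with this domain, predicted by StringTie, rose by 2.53 (limma adjusted p = 0.0081) and fell from button to maturation by 4.28 in pileus and by 3.49 in stipe.

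A09717, with the repeat of prenyltransferase alpha subunits, which attach the prenyl group, had 37.8, 38.2 and 35.3 FPKM in primordia, against 276, 327 and 313 FPKM in mycelia, and fell by 3.04 (limma adjusted p = 1.4e-06). The other listed gene with this repeat, A08417, differed less, with 105, 86.3 and 89.1 FPKM in primordia and 137, 117 and 131 FPKM in mycelia. A StringTie gene on contig 11 holds the domain of mating-type pheromones. It had 0.207, 0.132 and 0.117 FPKM in primordia, against 2.36, 2.55 and 1.15 FPKM in mycelia, and fell by 3.01 (limma adjusted p = 0.0004). Its primordia values lie close to the 0.1 added before the log, so the scale understates the change. It is the 1 gene of the list with this domain.

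Of the 6 partners listed by domain under the cyclic AMP branch, 1 rose and 0 fell between primordia and mycelia, beside the same shares of all genes. That gene is A05465, listed only for a cyclic nucleotide-binding domain, which it holds beside the STAS and permease domains of sulfate transporters. Whether it belongs to the branch was not tested. A05465 had 268, 296 and 192 FPKM in primordia, against 15.5, 13.8 and 14.5 FPKM in mycelia. It rose by 4.08 (limma adjusted p = 2.2e-06). At the button stage it was lower in pileus than in stipe by 3.39 on the log2 scale (limma adjusted p = 7.3e-05).

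Among 27 further regulators and effectors of GTPases, 1 rose and 4 fell between primordia and mycelia, again beside 15.1% of all genes higher and 22.5% lower. With library totals 3 of them rose and 2 fell. The partners named here were chosen after their values were seen.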

How the data were processed

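The data are 33 RNA-seq libraries, 3 per condition, grouped by their labels. The authors trimmed the reads, aligned them (Hisat2) to the assembly of JA-15036, added genes that StringTie predicted, and used featureCounts 1.5.0-p3 for gene counts. They deposited FPKM. The sources used here state neither the strand setting nor the treatment of reads with several alignments, so reads of closely related members may be shared. FPKM times gene length gave whole multiples of 1 unit per library for 100% of the values, within 1e-06, so reads were recovered.

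For the tests, limma 3.58.1 (R 4.3.3, trend on) was run on log2(FPKM + 0.1). Each fit kept genes whose FPKM averaged 0.5 or more over its own libraries, and Benjamini-Hochberg adjustment ran over every gene kept. A call needed an adjusted p below 0.05 together with a change of 1 or more on the log2 scale. Primordia and mycelia were fitted alone, as were button fruit bodies and primordia, the 18 pileus and stipe libraries together, and all 33 for the F test. The script was tested on simulated data.

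The members, partners, markers and tests were chosen with earlier results of these data known. Named are every receptor, in each other family the member with the highest mean and that with the largest span, per comparison the 3 largest rises and falls among called members whose libraries do not overlap, and some of the members with a SwissProt name. A04198 was named as a neighbour, A01671 as untested, and A06071 and the partners after their values were seen. The alternatives were other pseudocounts (1 and 0.01), filters (none and 5), scalings, no trend, voom, a replicate block, all 33 libraries in one fit and single libraries left out. Fits without maturation pileus 3 and button stipe 1, and without all 6 libraries that stand apart, were chosen after the data had been seen. A group left with fewer than 3 libraries was assumed to vary like the rest of its fit. Same-numbered libraries of button fruit bodies and primordia deviated together (correlations 0.13, 0.301 and 0.13). No label pairs them. Some results are not reported here because they name withheld items.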

Additional observations from a re-analysis of the deposited data

Results flagged for a closer look

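For 3 members the difference between pileus and stipe changed from the button to the mature stage by a test of that change itself. For the RhoGEF gene A05030 the change was 6.82 on the log2 scale (standard error 1.09, limma adjusted p = 0.0017), and every mature pileus lay above every mature stipe while every button pileus lay below every button stipe. For A04826, with its RhoGAP and RasGEF domains, it was 1.89 (standard error 0.34, limma adjusted p = 0.003).

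For the Ras family gene A06071 the change was -1.16 (standard error 0.33, limma adjusted p = 0.035). This gene had 606, 639 and 1186 FPKM in mature pilei, against 1318, 1178 and 1339 FPKM in mature stipes, and the high pileus value, which overlaps the stipes, is maturation pileus 3. In button pilei it had 778, 892 and 838 FPKM, against 623, 637 and 591 FPKM in button stipes. Its call was lost under 12 alternative settings, the replicate block among them, and the change was -1.48 without maturation pileus 3 and button stipe 1.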

How the results depend on the processing

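Of the called members' fold changes, 98 over all comparisons, 67 kept their call with library totals, 80 with quantile normalization and 52 under every alternative run. The fit without maturation pileus 3 and button stipe 1, added after seeing the data, called 8 members instead of 4 for button pileus against stipe, 19 instead of 11 for maturation pileus against stipe and 9 instead of 3 for the change between these stages. Library totals gave 10 instead of 19 for harvest pileus against stipe, and 5 instead of 9 partners for mature against button stipes. With single libraries left out, the counts came to 21 to 23 for primordia against mycelia, 0 to 0 for button fruit bodies against primordia, 3 to 7, 12 to 20 and 7 to 18 for pileus against stipe (button, harvest, maturation), 18 to 23 and 16 to 21 for mature against button pilei and stipes, 2 to 8 for the change of the pileus difference and 19 to 24 for the F test. With the replicate block the members called were 23 for primordia against mycelia, 0 for button fruit bodies against primordia, 18 instead of 19 for harvest pileus against stipe, 19 instead of 20 for mature against button pilei and 2 instead of 3 for the change of the pileus difference, where A06071 lost its call. The StringTie receptor gene at harvest (1.65 in pileus against stipe) lost its call under 7 settings, with 0.97 without harvest pileus 3. The StringTie receptor gene and A01882 rest on few reads in mature pilei and primordia, where depth limits the ratio. The cause of these shifts was not tested.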

Other observations

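Several members lie next to each other in the assembly, and neighbours differed in how alike their levels were over the 33 libraries. Within 10000 bp there were 8 pairs of members. The receptors A07375 and A07376 had a Pearson r of 0.948, while the G-alpha genes A01882 and A01884, 9242 bp apart, had 0.171, and the other 6 pairs lay between -0.148 and 0.469. These are descriptions over libraries that share conditions. Over the 11 condition means, A07375, A07376 and A08636 had pairwise r of 0.940 to 0.954 although A08636 lies on another contig, and A02085 had -0.517 with A07375.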
